A study of Mus musculus with 4 samples.

Results

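The genes described here are 31 genes of the integrated stress response and the unfolded protein response, taken as the rows of the deposited count table whose gene name was one of the 31 listed symbols. The whole table holds 58735 gene rows. All 31 symbols were found once each, all as protein-coding genes, and 30 of them had enough reads to be tested. Of the 31 names, 16 belong to the ATF4 arm and 15 to the endoplasmic reticulum (ER) arm, and the comparison asked for was between the ATF4 amino acid genes and the ER chaperone genes.

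The cells are Jurkat T cells, a human T cell leukaemia line, although the organism field of the labels names mouse. One group of 2 libraries is labelled wildtype and the other group of 2 is labelled Matr3 knock out, with the knockout made by CRISPR-Cas9. Both groups were grown in the same serum-containing medium with antibiotics, with no stress treatment named, and the labels give neither the guide, the number of clones nor a control guide. Whether the 2 libraries of a group are separate cultures is not stated, and the p-values thus cover no more than library-to-library spread, which may be technical.

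Cells answer several kinds of stress by phosphorylating the translation factor eIF2, which lowers protein synthesis in general and raises the translation of the mRNA for ATF4, a transcription factor. ATF4 is known to induce genes of amino acid synthesis, amino acid transport and tRNA charging, and stress regulators such as DDIT3 and TRIB3. Unfolded proteins in the ER activate the sensors PERK (gene EIF2AK3), IRE1 (gene ERN1) and ATF6, of which PERK feeds into ATF4, while IRE1, through the splicing of XBP1 mRNA, and ATF6 are known to induce ER chaperones and degradation factors. Counts per gene show neither the translation of ATF4, the splicing of XBP1 nor the cleavage of ATF6.

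The libraries held 15008554 to 17477643 reads. Levels are given as CPM, the reads of a gene per 1000000 reads of the genes tested, adjusted by TMM composition factors. A gene passed the test at an adjusted p of 0.05 by edgeR's quasi-likelihood test with Benjamini-Hochberg adjustment over 15294 genes. The tested row of the targeted gene, MATR3, went against the labels, with 19 and 9 reads in wild-type against 42 and 61 reads in the other pair. The fitted difference of this row was 4.14-fold, higher in the libraries labelled knockout. In wild-type replicate 2 the row fell short of the count minimum for testing. It was tested only because it was high in the libraries labelled knockout, so its call carries no weight beyond the reads. A second, overlapping MATR3 row on the same strand had 5, 1, 2 and 2 reads and was not tested. How reads that fall in both rows were counted is not given, so neither row need show the full level of MATR3. Reads on a row do not show whether an edit is present, so every direction below is that of the libraries labelled knockout. Cell type markers also differed between the groups. Of 16 myeloid markers, 15 were tested and 14 were higher, with CSF3R and ELANE at 0 reads in wild-type. The summed level of the 16 was 169 and 177 CPM in wild-type against 6207 and 6078 CPM in the libraries labelled knockout. Most of the latter was MPO (8.50 and 9.36 CPM in wild-type against 4972 and 4867 CPM). Of 14 T cell markers, 13 were lower, and their sum went from 3660 and 3406 CPM to 1478 and 1440.4 CPM, with none at 0 in either group. Of 6 tested B and plasma cell markers, 3 were higher and 2 lower, with a median log2 fold change of 1.56. Their sum went the other way, from 134 and 126 to 70.2 and 67.1 CPM, and most of it was MZB1 (115 and 108 CPM against 42.3 CPM in each library labelled knockout). MS4A1, JCHAIN and TNFRSF17 were at 0 in both groups. The summed level of 9 epithelial markers, of which 4 were tested and 4 were higher, went from 14.01 and 11.8 to 130.0 and 131 CPM (EPCAM and KRT19 at 0 in both). The summed fibroblast and kidney-line markers stood at 483 and 472 against 338 and 325 CPM. Of these, 3 of 4 tested were lower, and COL1A2 and COL3A1 were at 0 in both groups. The summed erythroid and megakaryocyte markers stood at 216 and 245 against 79.1 and 82.9 CPM, with HBB, HBG1 and PF4 at 0 in both. Most of that sum was TFRC (214 and 242 against 74.8 and 78.2 CPM), the 1 of 3 tested that was lower. KLF1 and ITGA2B did not pass (log2 fold changes 0.77 and 0.46). The summed natural killer cell markers stood at 24.5 and 23.6 against 27.6 and 28.6 CPM. Of 2 tested, 1 was higher and 1 lower, and KLRF1 and FCGR3A were at 0 in both. The lower one was NCAM1, with 21 and 15 reads in wild-type against 2 and 4. NCAM1 reached the count minimum only in wild-type, so its call carries no weight beyond the reads. Some markers counted as higher fell short of the count minimum for testing in a wild-type library. Among them were CD33, CSF3R, ELANE, LYZ, ITGAM, FCGR1A, CSF1R, AZU1, PRTN3, TYROBP, PAX5, BLNK and SERPINA1. They were tested only because they were high in the libraries labelled knockout, so their calls carry no weight beyond the reads. They enter the counts and the median above. Mitochondrially encoded genes took 4.92% to 5.31% of the reads in wild-type and 9.33% to 9.49% in the others. All of these moved in the same 2 libraries as the genes below, and their part in the results was not tested. In bulk RNA, a change in the share of cells of a type and a change in RNA per cell cannot be told apart.

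More of the 31 genes were higher than lower in the libraries labelled knockout. Of 30 tested, 20 rose, 4 fell and 6 did not pass. Over all genes tested, 66.0% passed, 33.7% higher and 32.3% lower, so passing the test was common in this comparison. The members' median log2 fold change was 0.36, against 0.02 over all genes tested. Rises of at least 2-fold were counted for 8 members, where 15.6% of all genes did so, and falls of at least 2-fold for 1 member, where 10.7% did so. The groups did not overlap in CPM for 27 of the 30, against 82.0% of all genes tested. All 30 reached the count minimum in both wild-type libraries, so none was tested only because it was high in the other group. NUPR1, a small stress-induced chromatin protein, had 2, 0, 2 and 1 reads across the 4 libraries and was not tested.

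**Figure D1:**
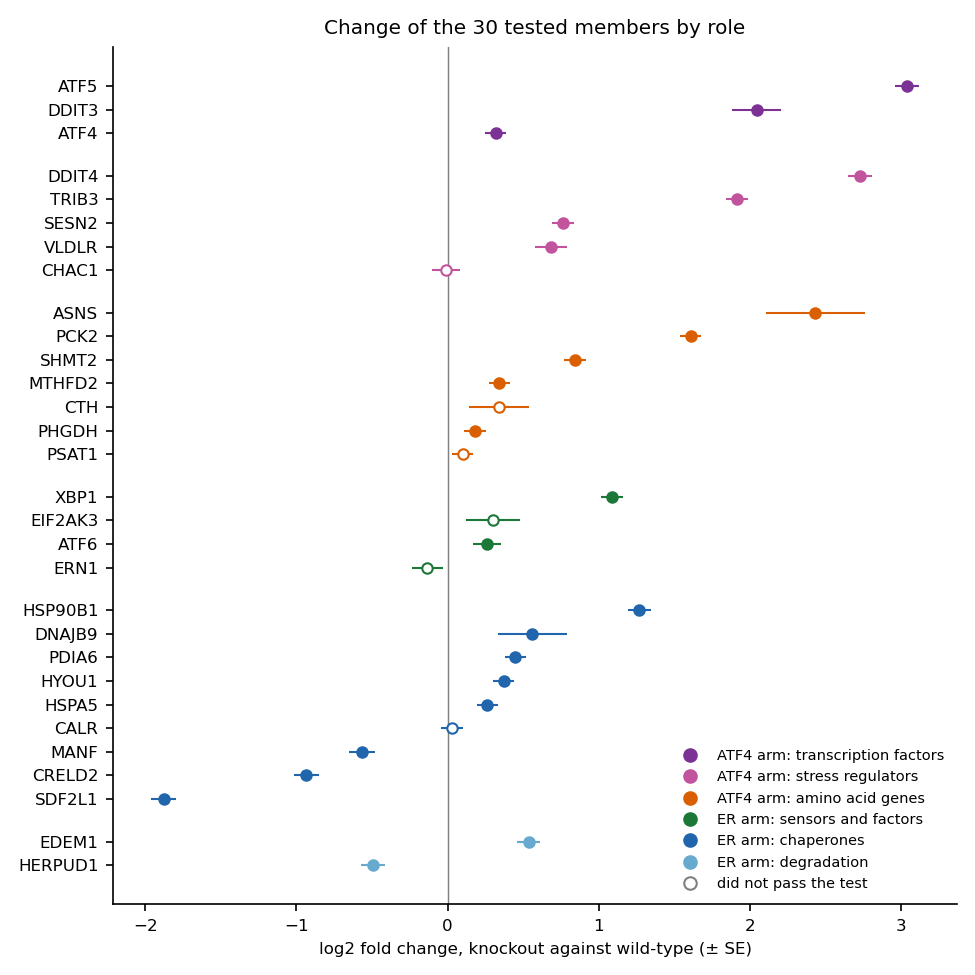
Log2 fold change (x axis) of each of the 30 tested genes (y axis), libraries labelled knockout against wild-type, with bars for the standard error of the fit. Colours give the role and open circles mark the 6 genes that did not pass the test. ATF5, DDIT4 and ASNS lie farthest to the right and SDF2L1 farthest to the left.

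The transcription factors of the ATF4 arm differed widely in size of change. ATF4 itself (ENSG00000128272, chromosome 22, 39519695 to 39522685, on a genome build that the sources do not name, as for all positions below) stood at 734 and 694 CPM in wild-type and at 893 and 888 CPM in the libraries labelled knockout. These values do not overlap, and the difference was small: 1.25-fold, or 0.32 on the log2 scale (SE 0.071, adjusted p = 6.43e-05, edgeR). Without replicate 1 of the libraries labelled knockout its adjusted p was 0.0525, the highest of 14 alternatives, which began at 2.49e-09. Wherever a library was left out, its group had 1 library, which was assumed to vary like the remaining pair. The wild-type pair varied more than the other pair (chi-square per gene 5.83 against 2.21), so the estimated spread differed between those fits. ATF5, a related bZIP factor whose translation is also raised when eIF2 is phosphorylated (ENSG00000169136, chromosome 19, 49928702 to 49933935), went from 51.3 and 47.5 CPM to 408 and 404 CPM. Both libraries labelled knockout stood far above both wild-type libraries, an 8.21-fold rise (log2 fold change 3.04, SE 0.078, adjusted p = 6.92e-49, edgeR). DDIT3, the CHOP factor of prolonged ER stress (ENSG00000175197, chromosome 12, 57516588 to 57521737), stood at 7.18 and 6.78 CPM in wild-type and rose to 27.5 and 30.1 CPM. Its rise was 4.12-fold (log2 fold change 2.04, SE 0.160, adjusted p = 2.43e-19, edgeR), from a low level.

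Per length, ATF4 remained the more abundant of the pair of ATF factors. Its level was 284 CPM per kilobase in wild-type and 354 in the libraries labelled knockout, whereas ATF5 was at 16.7 and 137 CPM per kilobase and DDIT3 at 5.34 and 22.0. ATF5 moved from place 22 to place 7 among the 31 genes by level per kilobase, while ATF4 held place 2 in both groups, behind CALR. The counts of ATF5 and DDIT3 have a limit, because the strand setting of the counting is not given and both overlap genes on the opposite strand. ATF5 overlaps NUP62, a nuclear pore gene, with 4318 and 3526 reads in wild-type against 1830 and 1728 reads in the libraries labelled knockout, opposite in direction to ATF5. DDIT3 overlaps the ends of MARS and MBD6, and MARS, with 4725 to 8159 reads per library, had many times the reads of DDIT3. Both had more reads in the libraries labelled knockout, the same direction as DDIT3. MARS had 5226 and 4725 reads in wild-type against 8159 and 7847, and MBD6 419 and 382 against 747 and 817. The 4 pseudogene copies of ATF4 in the table held 0.329% as many reads as ATF4, and the 4 copies each of ASNS and PSAT1 held 0.

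The stress regulators of the ATF4 arm rose, with CHAC1 as the exception. DDIT4 (REDD1), an inhibitor of mTORC1 (ENSG00000168209, chromosome 10, 72273920 to 72276036), stood at 51.5 and 49.7 CPM in wild-type and at 343 and 328 CPM in the libraries labelled knockout. TRIB3, a pseudokinase that restrains AKT and ATF4 (ENSG00000101255, chromosome 20, 362835 to 397559), went from 161 and 148 CPM to 598 and 564 CPM. The groups were far apart for both, with rises of 6.63-fold for DDIT4 (SE 0.078 on the log2 scale, adjusted p = 5.46e-46, edgeR) and 3.77-fold for TRIB3 (SE 0.073, adjusted p = 1.73e-37). SESN2, a leucine sensor and mTORC1 inhibitor, rose from 91.3 and 90.1 CPM to 154 CPM in each library labelled knockout (log2 fold change 0.76, SE 0.075). VLDLR, a lipoprotein receptor known as an ATF4 target, rose from 30.6 and 32.2 to 52.1 and 48.8 CPM (log2 fold change 0.68, SE 0.105). The antisense gene VLDLR-AS1 held 8.41% as many reads over the 4 libraries. Its reads went in the same direction as VLDLR, at 24 and 24 in wild-type against 90 and 75. CHAC1, which degrades glutathione and is known as a gene induced by ATF4 and CHOP, stood at 62.7 and 52.6 CPM in wild-type and at 58.9 and 55.9 CPM in the libraries labelled knockout. The latter values lie between the wild-type values, and CHAC1 did not pass the test (log2 fold change -0.01, SE 0.091, adjusted p = 0.937, edgeR). In all, 4 of these 5 genes rose and none fell, with log2 fold changes from -0.01 to 2.73. Over all genes tested, 33.7% were higher and 32.3% lower.

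**Figure D2:**
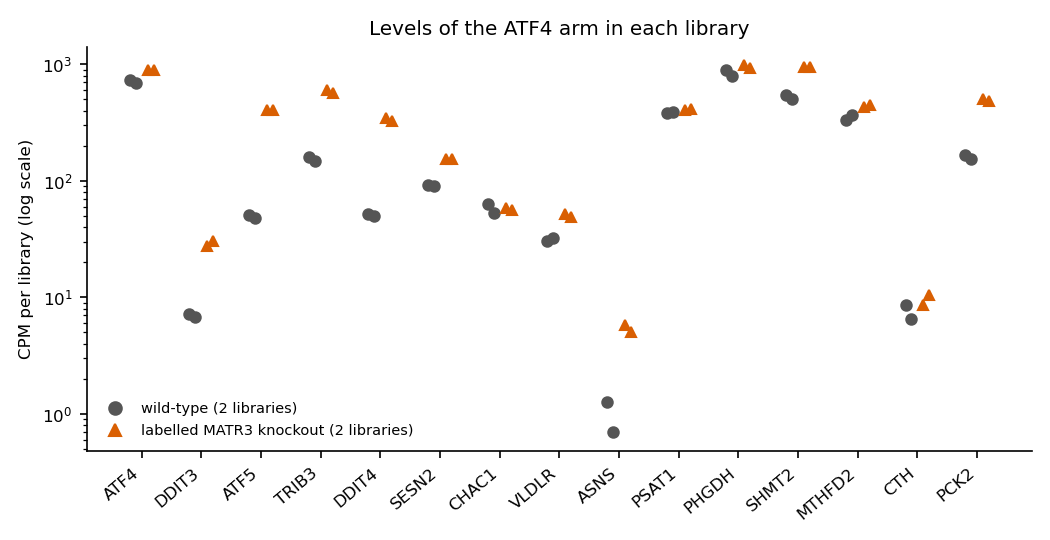
Level in CPM (y axis, log scale) of the 15 tested genes of the ATF4 arm (x axis) in each of the 4 libraries, with circles for wild-type and triangles for the libraries labelled MATR3 knockout. The symbols separate widely for ATF5, DDIT3, DDIT4, TRIB3, PCK2 and ASNS, and interleave for CHAC1.

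Among the amino acid genes, 5 of 7 rose and none fell, and the sizes ranged from 0.10 to 2.43 on the log2 scale. The share that passed, 71.4%, was near the 66.0% over all genes tested, where 33.7% were higher and 32.3% lower. ASNS makes asparagine, and lymphoid leukaemia cells that hold little of it are known for their sensitivity to asparaginase. Its read counts were 22 and 11 in wild-type against 84 and 74 in the libraries labelled knockout, which is 1.26 and 0.691 CPM against 5.73 and 4.99 CPM. It remained the lowest of the 30 tested genes per length in both groups (0.219 and 1.20 CPM per kilobase), even after the largest rise of the 7 (log2 fold change 2.43, SE 0.329, adjusted p = 7.58e-10, edgeR). The ratio of the summed reads, scaled by depth, was 5.41, with a 95% exact conditional interval of 3.70 to 8.14 that covers counting error only. The counts of ASNS have a further limit, since AC079781.5 on the same strand (8 to 17 reads per library) and AC005326.1 on the other (0, 0, 17 and 11 reads) overlap it. The size depends on which wild-type library is used, at 2.06 without replicate 2 and 2.96 without replicate 1.

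PCK2, the mitochondrial enzyme that makes phosphoenolpyruvate (ENSG00000100889, chromosome 14, 24094053 to 24110598), had far more reads and also rose strongly, from 168 and 154 CPM to 502 and 480.3 CPM. The rise was 3.05-fold (log2 fold change 1.61, SE 0.072, adjusted p = 5.13e-33, edgeR). SHMT2, which turns serine into glycine in mitochondria and charges folate with a one-carbon unit, went from 549 and 506 CPM to 947 and 943 CPM (log2 fold change 0.84, SE 0.071, adjusted p = 1.20e-17). MTHFD2, the next mitochondrial folate enzyme, rose less, from 332 and 364 CPM to 431 and 449 CPM (log2 fold change 0.34, SE 0.070, adjusted p = 1.75e-05).

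The serine synthesis enzymes were abundant in wild-type and moved little. PHGDH, the first enzyme of serine synthesis, stood at 887 and 801 CPM in wild-type and at 979 and 933 CPM in the others. Its log2 fold change of 0.18 (SE 0.072) passed with an adjusted p of 0.0245 in edgeR, and the call was lost without replicate 1 of the libraries labelled knockout (adjusted p = 0.421) without replicate 2 (adjusted p = 0.204), and with no expression filter (adjusted p = 0.1001). Over the 14 alternatives the adjusted p of PHGDH ran from 1.06e-06 to 0.421. PSAT1, the next enzyme of that pathway, stood at 381 and 389.9 CPM against 409 and 417 CPM and did not pass (log2 fold change 0.10, SE 0.069, adjusted p = 0.204, edgeR). It passed without either wild-type library (adjusted p = 0.0402 and 0.0430), with the value still at 0.10 and a range of 0.0402 to 0.603 over the alternatives. CTH, which makes cysteine from cystathionine, stood at 8.55 and 6.47 CPM against 8.60 and 10.5 CPM and did not pass (log2 fold change 0.34, SE 0.197, adjusted p = 0.123). Without wild-type replicate 1 its log2 fold change was 0.58 and it passed (adjusted p = 0.0257, the lowest of a range that reached 0.575).

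The sensors of the ER arm changed little and XBP1 rose 2.12-fold. XBP1, the factor activated by IRE1 (ENSG00000100219, chromosome 22, 28794555 to 28800597), rose from 120.0 and 115 CPM to 251 and 247 CPM, a 2.12-fold change (SE 0.072 on the log2 scale, adjusted p = 5.20e-23, edgeR). ATF6, the membrane-bound factor, stood at 45.5 and 51.4 CPM against 56.1 and 59.9 CPM (log2 fold change 0.26, SE 0.093, adjusted p = 0.0112). The ATF6 call was lost without replicate 1 or 2 of the libraries labelled knockout (adjusted p = 0.0699 and 0.219) and with scaling by totals alone (0.0708), in a range that began at 0.00194. EIF2AK3, the PERK kinase, had 9.64 and 9.48 CPM against 11.3 and 12.2 CPM and did not pass (log2 fold change 0.30, SE 0.179, adjusted p = 0.136). ERN1, the IRE1 kinase and nuclease, had 44.1 and 49.4 CPM against 44.3 and 40.8 CPM, groups that overlap (log2 fold change -0.13, adjusted p = 0.237).

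The ER chaperone genes went in both directions, with 5 of 9 higher, 3 lower and 1 not passing. The share over all genes tested was 33.7% higher and 32.3% lower, so 3 of 9 lower is close to it. HSP90B1 (GRP94), the HSP90 of the ER (ENSG00000166598, chromosome 12, 103930107 to 103953645), rose most, from 90.8 and 108 CPM to 245 and 234 CPM. That was 2.41-fold (log2 fold change 1.27, SE 0.076, adjusted p = 1.38e-25, edgeR). The 4 other rises were smaller. HSPA5 (BiP), the ER HSP70 and the usual reporter of ER stress (ENSG00000044574, chromosome 9, 125234853 to 125241330), stood at 288 and 305 CPM in wild-type and at 353 and 358 CPM in the libraries labelled knockout. Its 1.20-fold rise (log2 fold change 0.26, SE 0.070) passed with an adjusted p of 0.000663 in edgeR. That call was lost without replicate 1 of the libraries labelled knockout (adjusted p = 0.0689) and without replicate 2 (0.0881), in a range from 8.58e-06 to 0.0881. HYOU1, an exchange factor for BiP, went from 413 and 398 to 519 and 530.0 CPM, and PDIA6, a disulphide isomerase, from 149.998 and 162 to 216 and 210.4 CPM (log2 fold changes 0.37 and 0.45, SE 0.070 and 0.072).

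DNAJB9, a BiP cochaperone that holds IRE1 in check, had few reads, 82 and 67 in wild-type against 109 and 85 in the libraries labelled knockout. Its log2 fold change of 0.56 (SE 0.227) passed with an adjusted p of 0.0260 in edgeR. The value moved from 0.36 without replicate 1 of the libraries labelled knockout (adjusted p = 0.356) to 0.74 without replicate 2. The DNAJB9 call was also lost without wild-type replicate 2 (adjusted p = 0.106) and under 3 other settings, among them the DESeq2 Wald test (adjusted p = 0.124), in a range from 0.0150 to 0.356. DNAJB9 overlaps THAP5 and PNPLA8 on the opposite strand, which had 88 to 159 and 70 to 146 reads per library.

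CALR, calreticulin, the lectin chaperone that binds calcium in the ER, was the most abundant member per length, at 683 CPM per kilobase in wild-type and 697 in the others. Its 4 levels were 1918 and 1791 CPM in wild-type and 1891 and 1889.6 CPM in the libraries labelled knockout, so the latter lie inside the wild-type pair. It did not pass the test (log2 fold change 0.03, SE 0.074, adjusted p = 0.757, edgeR), except without wild-type replicate 1 (0.10, adjusted p = 0.0181, where the alternatives reached 0.903).

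The 3 chaperone genes that fell are small soluble factors known to be induced by ER stress. SDF2L1, which works with the BiP cochaperone DNAJB11 (ENSG00000128228, chromosome 22, 21642261 to 21644298), stood at 163 and 148 CPM in wild-type and at 43.5 and 41.1 CPM in the libraries labelled knockout. It fell to 27.2% of its wild-type level (log2 fold change -1.88, SE 0.083, adjusted p = 1.44e-33, edgeR), and 2.28% of all genes tested had a smaller log2 fold change. CRELD2, a secreted ER protein with disulphide isomerase motifs (ENSG00000184164, chromosome 22, 49918167 to 49927540), went from 99.7 and 104 CPM to 51.6 and 55.0 CPM, or to 52.3% (SE 0.083 on the log2 scale, adjusted p = 7.36e-17). MANF, a secreted factor that binds BiP, went from 75.6 and 76.2 CPM to 51.2 and 51.1 CPM, or to 67.4% (SE 0.086, adjusted p = 1.81e-08). CRELD2 overlaps ALG12 on the opposite strand, which was also lower (792 and 709 reads in wild-type, against 435 and 484).

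Both degradation factors passed, in opposite directions, where 66.0% of all genes tested passed. HERPUD1, a membrane component of ER-associated degradation, fell from 102 and 94.6 CPM to 68.4 and 71.1 CPM, or to 71.0% (SE 0.080 on the log2 scale, adjusted p = 1.21e-07, edgeR). EDEM1, a lectin that directs misfolded glycoproteins to degradation, rose from 105 and 122 CPM to 168 and 162 CPM (1.45-fold, SE 0.075, adjusted p = 2.39e-09). Neither gene's groups overlapped. The 4 members that fell (SDF2L1, CRELD2, MANF and HERPUD1) did so under all 14 alternatives.

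**Figure D3:**
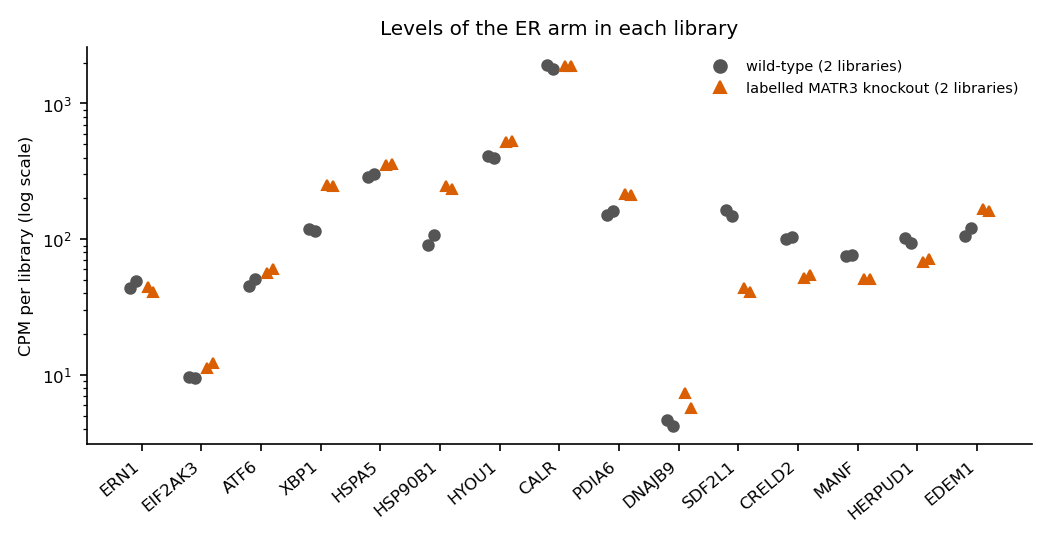
Level in CPM (y axis, log scale) of the 15 tested genes of the ER arm (x axis) in each of the 4 libraries, with circles for wild-type and triangles for the libraries labelled MATR3 knockout. The triangles stand above the circles for XBP1 and HSP90B1, below them for SDF2L1, CRELD2, MANF and HERPUD1, and overlap them for CALR and ERN1.

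Set side by side, the ATF4 amino acid genes and the ER chaperone genes had close medians and unlike spreads. The median log2 fold change was 0.34 over the 7 amino acid genes and 0.26 over the 9 chaperone genes, a difference of 0.08, against 0.02 over all genes tested. No amino acid gene was below 0.10, whereas the chaperone genes ran from -1.88 to 1.27. By this measure 5 of the 7 amino acid genes lay within the range of the chaperones, and 5 of the 9 chaperones within that of the amino acid genes. Per library, the median deviation from the wild-type mean was 0.31 and 0.46 for the amino acid genes in the libraries labelled knockout, and 0.25 and 0.27 for the chaperones. The wild-type libraries lay at 0.06 and -0.06 for the amino acid genes and within 0.01 of 0 for the chaperones. The difference of the medians was 0.34 without wild-type replicate 1 and 0.06 without replicate 2 of the libraries labelled knockout, so its size rests on single libraries. The members share their libraries and were listed with earlier results of these data known, and this difference was not tested.

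Among the members, summed levels separated these groups of genes more than the medians did. The further lists described below had the opposite order. There the other amino acid synthesis enzymes summed to 1.02 times their wild-type CPM and the other ER folding factors to 1.56 times. The folding factor sum went from 2604 and 2607 CPM to 4062 and 4076 CPM. Most of that rise was a single gene, P4HB, which went from 809 and 733 CPM to 1827 and 1815 CPM. The summed amino acid genes stood at 2326 and 2222 CPM in wild-type and at 3283 and 3238 CPM in the libraries labelled knockout, 1.43 times as much. The summed chaperones stood at 3203 and 3097 CPM against 3378 and 3375 CPM, 1.07 times as much, and CALR made up the larger part of that sum. Without CALR the chaperone sum was 1285 and 1306 CPM against 1487 and 1485 CPM (1.15 times). Per length the direction turned, with SDF2L1 alone going from 141 to 38.5 CPM per kilobase: without CALR the chaperone sum was 384 and 380.3 CPM per kilobase in wild-type against 336 and 333 (0.876 times). The amino acid genes kept their ratio per length (1.43 times). The stress regulators of the ATF4 arm rose most as a sum, from 397 and 372 CPM to 1206 and 1151 CPM (3.06 times).

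The members lie on 15 chromosomes. For each tested member, the median log2 fold change of the 50 nearest tested genes on its chromosome lay between -0.60 (around HYOU1) and 0.50 (around PHGDH). The sign of the neighbours' median was shared by 14 of 30 members, against 61.1% of the 15246 tested genes measured in the same way. At least 0.5 away from it stood 15 of 30, close to the 53.1% over those genes. ATF5 was 3.26 above its neighbours, DDIT4 2.72, ASNS 2.63 and TRIB3 2.24. SDF2L1 was 1.53 below its neighbours, whose own median was -0.35. Chromosome 22 carries 4 members, among them ATF4 and XBP1, which rose where their neighbours' medians were -0.18 and -0.11, and SDF2L1 and CRELD2, which fell. Within 0.1 of their neighbours lay 4 members: PSAT1, CTH, CHAC1 and DNAJB9. The neighbours of DNAJB9 had a median of 0.50, close to its own 0.56, and those of PHGDH were above it. VLDLR (0.68) also lies among neighbours that were higher, with a median of 0.39.

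**Figure D4:**
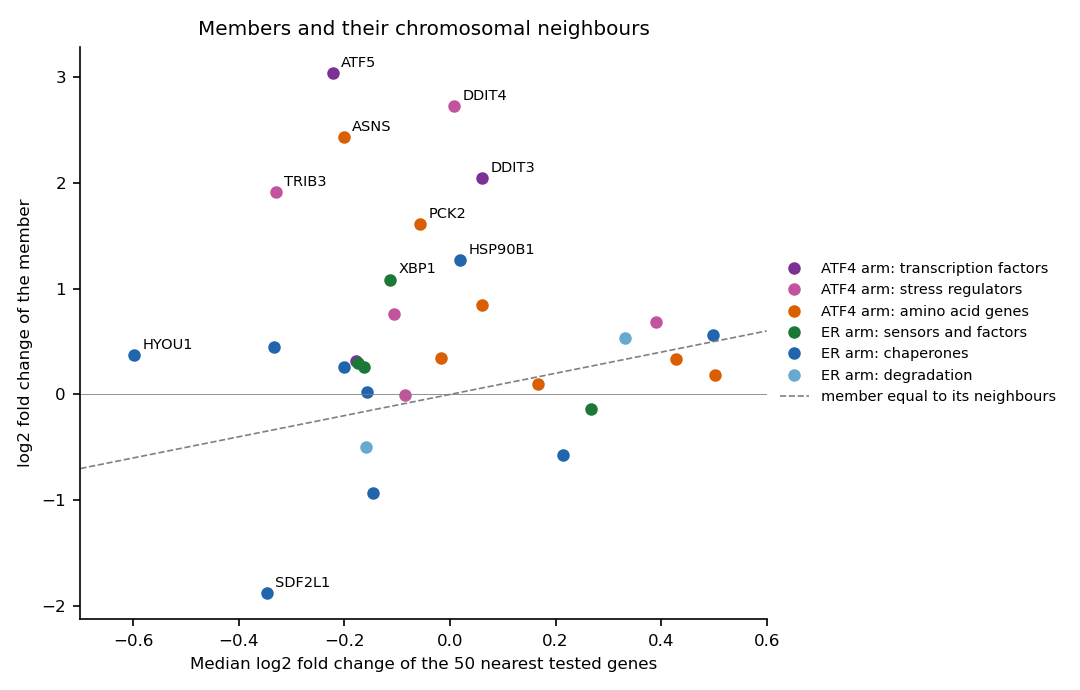
Log2 fold change of each tested member (y axis) against the median log2 fold change of the 50 tested genes nearest to it on its chromosome (x axis), coloured by role. The dashed line marks equal values. ATF5, DDIT4, ASNS, DDIT3, TRIB3 and PCK2 lie far above the line and SDF2L1 far below it.

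Further genes of these pathways, 148 in 8 lists, were counted in the same way, against 33.7% higher and 32.3% lower over all genes tested. The cytosolic aminoacyl-tRNA synthetases, which charge tRNAs with amino acids and include known ATF4 targets, rose for 13 of 20 and fell for none, with a median log2 fold change of 0.42. WARS, the tryptophan enzyme, rose from 182 and 168 CPM to 587 and 581 CPM, and LARS and VARS, for leucine and valine, had log2 fold changes of 1.07 and 1.04. Amino acid transporters known as ATF4 targets or linked to it rose for 5 and fell for 2 of 9 tested (median 0.43). Their summed level was 3634 and 3305 CPM in wild-type against 3546 and 3454 CPM, 1.01 times as much. The 2 that fell were abundant: SLC7A5 went from 1733 and 1570 to 1073 and 1052 CPM, and SLC3A2 from 664 and 605 to 564 and 549 CPM. SLC7A11, the cystine transporter, stood at 4.65 and 5.53 CPM in wild-type and at 40.1 and 43.8 CPM in the others. SLC43A1 and SLC38A2, carriers of neutral amino acids, had log2 fold changes of 1.91 and 1.16. Other enzymes of amino acid synthesis moved in both directions: of 19 tested, 10 rose and 7 fell (median 0.18). GPT2, a mitochondrial alanine aminotransferase, rose from 105 and 92.1 to 274 and 263 CPM, while PYCR3, a proline enzyme, fell to 30.8% of wild-type. ALDH1L2, a mitochondrial folate enzyme, had 0 and 3 reads in wild-type against 240 and 226 reads, a ratio of 176 with a 95% exact conditional interval of 59.7 to 855, for counting error only. Leaving out wild-type replicate 1 gave a log2 fold change of 6.35, and leaving out replicate 2 gave 10.94.

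The eIF2 kinases, eIF2 and eIF2B subunits and their regulators counted 8 that rose and 5 that fell among 15 tested, with a median of 0.44. PPP1R15A (GADD34), which recruits the phosphatase that reverses eIF2 phosphorylation and is an ATF4 and CHOP target, rose from 27.7 and 25.8 CPM to 88.3 and 89.5 CPM (log2 fold change 1.73, SE 0.093). EIF2S2, the beta subunit of eIF2, had a log2 fold change of 0.79. IMPACT, which keeps GCN1 from activating the eIF2 kinase GCN2, had 1 and 2 reads in wild-type against 246 and 259 reads, a ratio of 190.3 (95% exact conditional interval 64.8 to 926, for counting error only). The log2 fold change of IMPACT was 7.02 without wild-type replicate 1 and 8.02 without wild-type replicate 2. Partner bZIP and other stress factors rose for 8 and fell for 2 of 14 (median 0.40), with CEBPB, an ATF4 partner that is also a myeloid factor, from 71.0 and 70.7 to 190.1 and 188 CPM. NFE2L2 (NRF2), the factor of the oxidative stress response, and CREB3L2, a membrane-bound relative of ATF6, had log2 fold changes of 1.72 and 1.10.

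The wider ER lists held genes that rose and genes that fell, as all genes tested did. Of 27 other ER folding factors, 16 rose and 7 fell (median 0.34). Among them, FKBP11, a prolyl isomerase, fell to 33.8% of wild-type, and CRELD1, the relative of CRELD2, had a log2 fold change of 1.33, opposite in direction to CRELD2. UGGT2, a folding sensor for glycoproteins, had 0 reads in both wild-type libraries and 177 and 203 in the others. With 3 counts taken as the floor for both wild-type libraries together, the ratio for UGGT2 was 143. The exact 95% lower limit from counting error, taken from the 0 reads without that floor, was 116, so 143 is not a lower bound. Of 21 genes of ER-associated degradation, 10 rose and 9 fell (median 0.16), a split near that of all genes tested, with UBE2J1 and SEL1L, parts of the ER ubiquitin ligase machinery, at log2 fold changes of 1.36 and 1.28 and UBE2G2, another ubiquitin-conjugating enzyme, at -1.29. Of 21 genes of ER translocation and export, 9 rose and 6 fell (median 0.12). SEC62 and SEC63, partners of the translocon, were at 1.63 and 1.49, and SEC11C, a signal peptidase subunit, at -1.17. All 24 genes named from these lists for the size of their change had an adjusted p below 0.05 in edgeR. All 24 kept their direction and their call under the 14 alternatives. UGGT2, IMPACT and ALDH1L2 reached the count minimum only in the libraries labelled knockout. So did DERL3, of ER-associated degradation (8 and 5 reads in wild-type against 55 and 50), and BATF2, a stress factor (5 and 2 against 14 and 15). These genes were tested only because they were high there, and their calls carry no weight beyond the reads themselves. The counts and medians of their lists include them.

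**Figure D5:**
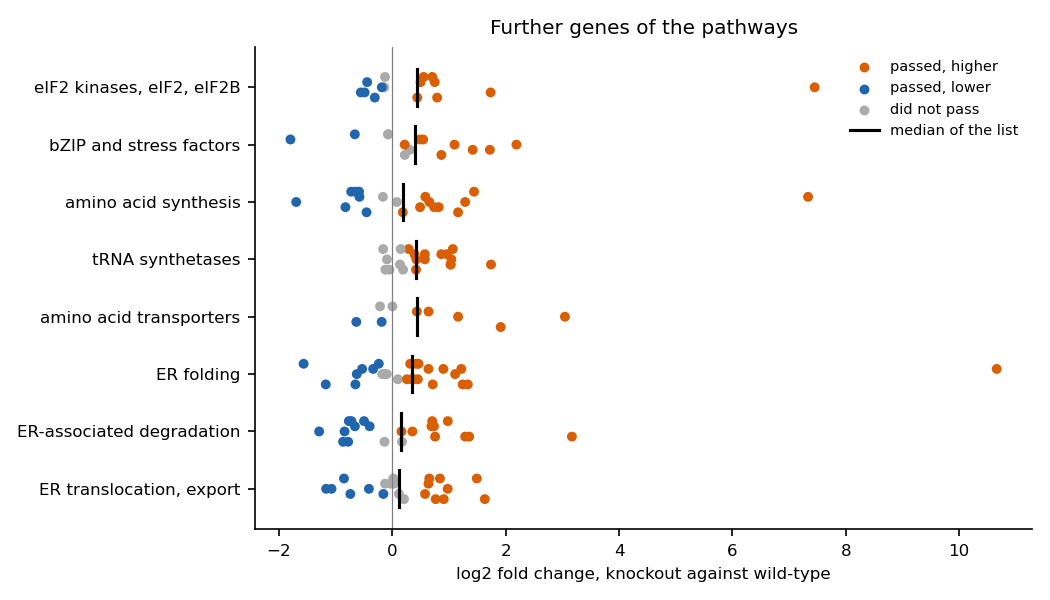
Log2 fold change (x axis) of the tested genes of the 8 further lists (y axis), libraries labelled knockout against wild-type, coloured by whether the gene passed the test, with a black bar at each list's median. No tRNA synthetase is marked as lower, while the ER lists hold genes on both sides. The values farthest to the right are those of UGGT2, IMPACT and ALDH1L2, which had 0 to 3 reads in wild-type, so their fitted size is uncertain.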

How the data were processed

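Read counts per gene, deposited by the authors without normalization, were analysed from 4 RNA-seq libraries, 2 in each group, with columns matched to samples through the sample descriptions. The tools listed per the submitters' processing notes are HISAT2 2.0.5, featureCounts 1.5.0-p3 and CASAVA 1.8. Their roles, strand setting and build are not given there. All 58735 rows carry human Ensembl identifiers. Positions and gene lengths are those of the deposited table.

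Counts were compared with edgeR 4.0.16 (R 4.3.3). Libraries were scaled by TMM, with factors of 0.978 to 1.04, and genes were kept by filterByExpr with a minimum count of 10 and a total of 15. The test was the two-sided quasi-likelihood test without covariates, Benjamini-Hochberg adjusted over 15294 genes. The SE on the log2 scale was taken from the coefficient and its F statistic. Per-library medians used log2 of CPM plus 0.5. The test was first run on simulated data. DESeq2 1.42.0, limma 3.58.1 (voom), other scalings, filters, a replicate block and leaving out each library were tried. Replicates differed by more than sampling noise, with a chi-square of 5.83 per gene in wild-type and 2.21 in the other pair (genes with at least 20 reads), and were counted separately. Genes with few reads are imprecise at these depths.

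The members and lists were chosen with earlier results of these data known. All 31 members are named. From each further list, up to 3 genes with the largest change were named among those that passed and averaged at least 5 CPM. SLC7A5, SLC3A2, P4HB, DERL3 and BATF2 were named besides. All 75 marker symbols were in the table. Sequences were not used here.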

Additional observations from a re-analysis of the deposited data

How the results depend on the processing

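Of the 30 members tested, 21 kept their direction and their side of the threshold under all 14 alternatives, and 395 of 420 single values did so. The exceptions were ATF4, CHAC1, PSAT1, PHGDH, CTH, ATF6, HSPA5, CALR and DNAJB9, each with a small change or few reads, and the cause was not tested. CHAC1 turned positive with upper-quartile scaling (0.0275), with scaling without mitochondrially encoded genes (0.0034) and with protein-coding genes only (0.0044), and ranged from -0.14 to 0.14 when single libraries were left out. CALR turned to -0.0191 with library totals only, and ranged from -0.0358 to 0.0974 when single libraries were left out. The chaperone median was 0.22 with library totals only, and 0.24 to 0.29 without single libraries. The median of the amino acid genes ranged from 0.32 to 0.58 and the difference of the medians from 0.0573 to 0.336 without single libraries. Between 15 and 23 members passed as higher over all alternatives, and 4 as lower in each.

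With the replicate number as a block, 20 members were higher and 4 lower, 5149 and 4923 of all genes passed, the amino acid and chaperone medians were 0.34 and 0.26, and no call of a member changed. Same-numbered libraries share only a number, and the correlation of their deviations across genes was 0.03. The median of all genes moved by over 0.1 only without an expression filter, to 0.15.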
